A study of Mus musculus with 12 samples.

Results

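Expression of 7 metal-handling genes other than those of iron was described in the livers of young male mice whose dams and who themselves had eaten a control or an obesogenic diet. The genes encode the metallothioneins Mt1 and Mt2, the zinc and manganese transporters Slc39a14, Slc30a1 and Slc30a10, and the magnesium transporters Nipal1 and Slc41a2. They are 7 of the 12086 genes in the deposited table, and all 7 passed the filter on low values. Of these, 5 were chosen by function, whereas Nipal1 and Slc41a2 were chosen by their own values, because they had been seen to move with the diet of the offspring in these libraries. The offspring diet values of those 2 genes are therefore given as a description with no test.

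Metallothioneins are small cysteine-rich proteins that bind zinc and copper, and in the liver their genes are switched on by zinc through the metal-sensing factor MTF1 and also by glucocorticoids and inflammatory cytokines. ZIP transporters (Slc39 genes) bring zinc and related metals into the cytosol, and ZnT transporters (Slc30 genes) move them out of it. In hepatocytes, ZIP14 (Slc39a14) takes up zinc, manganese and non-transferrin-bound iron and is known as an acute phase protein of the liver, ZnT1 (Slc30a1) exports zinc across the plasma membrane, and ZnT10 (Slc30a10) exports manganese. NIPA-like and SLC41 proteins have been described as magnesium transporters.

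All mice were wild-type C57BL/6 males, killed in a fasted state at 84 days of age. The 4 groups carry 2 letters, the first for the diet of the dam until weaning at day 21 and the second for the diet of the offspring from then on. OO had the obesogenic diet in both generations, CO had a control dam and the obesogenic diet itself, OC had an obesogenic dam and the control diet itself, and CC had the control diet throughout. The obesogenic pellets contained 10% simple carbohydrate and 20% lipid by weight, with sweetened condensed milk supplemented with minerals and vitamins, and the control chow contained 7% simple carbohydrate and 3% lipid. No source used here gives the metal content of the diets. Litters had been reduced to 6 pups on day 3. The labels list 3 samples per group, and the table held 3 OO, 2 CO, 3 OC and 3 CC libraries, named here by group with a number that serves only as a name. No source used here tells which mice shared a dam, so p-values measure the spread between these libraries.

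Each value is a scaled count, an estimated gene count divided by 1 factor per library, and it is not divided by gene length. The depth computed from the steps between values was 27837810 reads in OO.0 and 3976166 to 7969055 in the other libraries, so that 3 reads were worth between 0.10 and 0.829. Hepatocyte markers were high in all libraries, with a summed value of 21304.5 to 36922.3 over the 6 of 8 listed that were measured. No row was matched to the other listed markers, Alb and Tf. The sum includes Cps1, which averaged 11086.0 in CC and 3700.6 in OO, so it does not measure hepatocyte content alone. Several libraries stood apart. CO.1 and OC.1 had mean log2 levels of 25 acute phase transcripts of 2.77 and 2.03 above the CC mean, while the other 9 libraries lay between -0.28 and 0.79. CO.1, OC.0 and CC.1 held transcripts of the exocrine pancreas, with summed values over 13 genes of 4108.9, 6481.4 and 963, against 7.46 to 134 in the other 8 libraries. In OO.1 the single gene Lars2 had a value of 142070.7. The tissue was bulk liver, so fewer cells of a type and less RNA per cell cannot be told apart.

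Mt1 and Mt2 lie beside each other on chromosome 8. Windows around their annotated starts are shown because the 2 genes varied together more closely than any other pair of members. The window of Slc30a1, another gene known to answer to MTF1 and here the steadiest member, is set beside them. RefSeq windows from 250 bases before to 50 bases after the annotated start were available for 6 of the 7 members (build GRCm38.p6). Capitals mark every match to the core of the metal response element, the site that MTF1 binds, searched as TGCACNC and TGCGCNC on both strands.
Mt1, chr8:94178839-94179138, plus strand: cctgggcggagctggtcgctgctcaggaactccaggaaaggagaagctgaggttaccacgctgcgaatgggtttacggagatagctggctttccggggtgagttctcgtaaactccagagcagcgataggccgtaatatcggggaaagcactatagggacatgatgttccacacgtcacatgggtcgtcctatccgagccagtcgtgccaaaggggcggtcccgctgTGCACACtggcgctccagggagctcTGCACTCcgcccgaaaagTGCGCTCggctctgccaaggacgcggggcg
Mt2, chr8:94172368-94172667, plus strand: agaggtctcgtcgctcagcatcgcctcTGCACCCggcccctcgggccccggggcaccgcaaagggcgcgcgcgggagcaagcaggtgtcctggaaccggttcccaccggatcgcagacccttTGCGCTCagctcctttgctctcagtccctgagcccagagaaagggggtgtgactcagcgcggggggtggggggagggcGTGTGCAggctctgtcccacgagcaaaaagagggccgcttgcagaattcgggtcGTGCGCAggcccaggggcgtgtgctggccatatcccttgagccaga
Slc30a1, chr1:191906531-191906830, plus strand: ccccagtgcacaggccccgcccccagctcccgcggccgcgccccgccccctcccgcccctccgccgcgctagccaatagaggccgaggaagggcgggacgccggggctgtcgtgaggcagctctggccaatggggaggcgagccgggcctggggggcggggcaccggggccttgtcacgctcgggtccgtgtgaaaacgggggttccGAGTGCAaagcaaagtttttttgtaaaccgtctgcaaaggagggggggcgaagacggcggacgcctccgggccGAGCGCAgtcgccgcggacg

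The windows held 3 matches in Mt1, 4 in Mt2 and 2 in Slc30a1. Slc30a10 had 3, of which 1 pair overlapped as the 2 strands of a palindrome, Slc41a2 had 1 and Nipal1 had 0. Among 32851 mouse promoter windows of this length, 25.7% held at least 1 match, 7.11% at least 2, 1.97% at least 3 and 0.517% at least 4. A match is a run of letters and not a measured binding site, and the absence of a match speaks only of this window. Matches outside the windows, such as near another start of the same gene, were not counted.

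The metallothioneins varied more between mice of the same group than almost any other gene. Mt1 had scaled counts of 7.38, 32.4 and 91.5 in OO, 36.3 and 713 in CO, 16.3, 104 and 10.3 in OC and 138, 4.86 and 27.8 in CC. The highest library, CO.1, stood 147-fold above the lowest, CC.1, and the values of all 4 groups overlapped. Mt2 had scaled counts of 1.27, 8.29 and 21.4 in OO, 9.0 and 248 in CO, 3.64, 27.8 and 1.32 in OC and 23.0, 0.935 and 2.35 in CC. Its range was 265-fold, with CO.1 again highest and CC.1 lowest, and the lowest Mt2 values rested on 5 reads in CC.1 and 9 reads in OC.2. The SD within groups on the log2 scale was 2.16 for Mt1 and 2.23 for Mt2, which ranked the 2 genes 35th and 31st from the top of 12086, where the median gene had an SD of 0.22.

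Neither metallothionein differed between diets beyond that spread. Mt1 averaged 375 ± 478 in CO (SD, n = 2) and 56.8 ± 71.1 in CC (SD, n = 3), a log2 difference of 2.56 with a 95% interval of -0.79 to 5.90 (limma adjusted p = 0.427). The CO average of Mt1 rested on CO.1, and without that library the difference was 0.42. Mt2 averaged 129 ± 169 in CO and 8.76 ± 12.3 in CC, a difference of 3.41 with an interval of -0.06 to 6.88 (limma adjusted p = 0.306), and 1.05 without CO.1. Averaged over dams the offspring diet effect was 1.33 for Mt1 and 1.82 for Mt2 (limma adjusted p = 0.524 and 0.392), and without CO.1 it was 0.26 and 0.64. Under obesogenic dams alone the fitted differences were close to 0 but loosely bounded. Mt1 averaged 43.7 ± 43.2 in OO and 43.7 ± 52.7 in OC, a log2 difference of 0.11 with an interval of -2.88 to 3.10. Mt2 averaged 10.3 ± 10.2 in OO and 10.9 ± 14.7 in OC, a log2 difference of 0.22 with an interval of -2.88 to 3.33. In the order of group means CO came first for both genes and the other 3 groups lay within 1 SD of one another.

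The maternal comparisons of the metallothioneins were as loosely bounded. OO against CO gave log2 differences of -2.49 for Mt1 and -2.80 for Mt2 (limma adjusted p = 0.878 and 0.875), which without CO.1 were -0.36 and -0.44, and OC against CC gave -0.05 and 0.38 (adjusted p = 0.997 and 0.985). With intervals as wide as these, differences of several fold in either direction could not be told from 0 in these libraries.

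**Figure D1:**
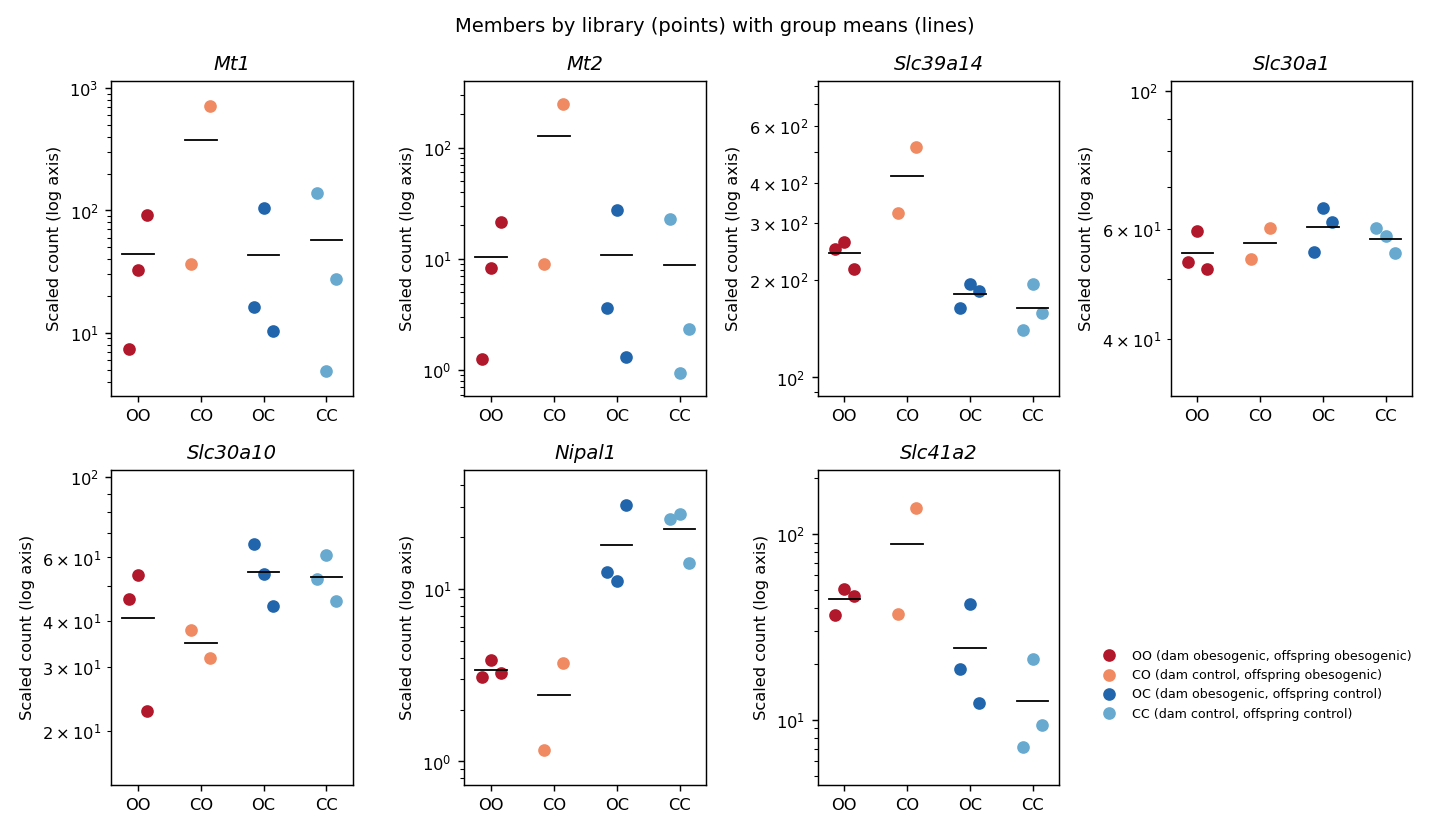
Scaled counts of the 7 genes on log axes, 1 point per library and a line at each group mean, for OO, CO, OC and CC. Mt1 and Mt2 spread over 147-fold and 265-fold with overlapping groups, Slc30a1 stayed within 1.25-fold, and the 5 obesogenic-fed libraries lay above the 6 control-fed ones for Slc39a14 and below them for Nipal1. Nipal1 was chosen by its offspring diet values, and the share of all genes that separate in this way is not given here.

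The 2 metallothioneins varied together from library to library. Over the 11 libraries Pearson's r of their log2 values was 0.98 and Spearman's rho was 0.98 (permutation p = 1e-05 for each, the smallest that 100000 resamples can give, adjusted p = 1.00e-04 over the 10 pairs of the 5 genes chosen by function). It was 0.98 after the group means were subtracted (exact permutation within groups, p = 0.0023, the smallest that 432 arrangements can give, adjusted p = 0.046 over 20 pairs) and 0.96 without the 2 libraries farthest from the median of Mt1, CO.1 and CC.1. The mRNAs share no run of more than 20 bases, so reads longer than that can be told apart where they match without error. The Mt2 value was 17.2%, 25.6% and 23.4% of the Mt1 value in OO, 24.8% and 34.8% in CO, 22.3%, 26.6% and 12.9% in OC and 16.7%, 19.2% and 8.46% in CC. That share was highest in CO.1, the library with the most of both, and is not corrected for transcript length. Next after Mt2, the genes whose log2 values followed Mt1 most closely were Upf1 (r of 0.86) and Ndufaf7 (0.84), and after Mt1 those for Mt2 were the acute phase glycoprotein gene Orm2 (0.89) and Upf1 (0.88), as descriptions over 11 libraries. Orm2 had 3.71, 8.57 and 21.6 in OO, 12.5 and 259 in CO, 5.76, 127 and 2.64 in OC and 4.76, 2.06 and 3.18 in CC, so it did not share the high metallothionein value of CC.0.

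Beside each other, the metallothionein and acute phase levels matched in some libraries and not in others. CO.1 and OC.1, the 2 libraries highest in the acute phase list, had the highest and the third highest of the 11 Mt1 values, and the 2 highest of Mt2. CC.0 had the second highest Mt1 value and an acute phase level of only 0.03. The mean level of 10 glucocorticoid-induced transcripts was lower under the obesogenic offspring diet, at -0.23, -0.51 and -1.0 in OO and -0.45 and -0.46 in CO, against -0.07, -0.07 and -0.06 in OC and 0.17, -0.09 and -0.08 in CC. Their part in the metallothionein values was not tested. The gene of the metal sensor itself, Mtf1, was steady, at 17.1 ± 2.35 in OO, 20.1 ± 0.329 in CO, 19.4 ± 1.78 in OC and 17.8 ± 2.25 in CC, with an average offspring diet effect of -0.00 (limma adjusted p = 0.994).

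**Figure D2:**
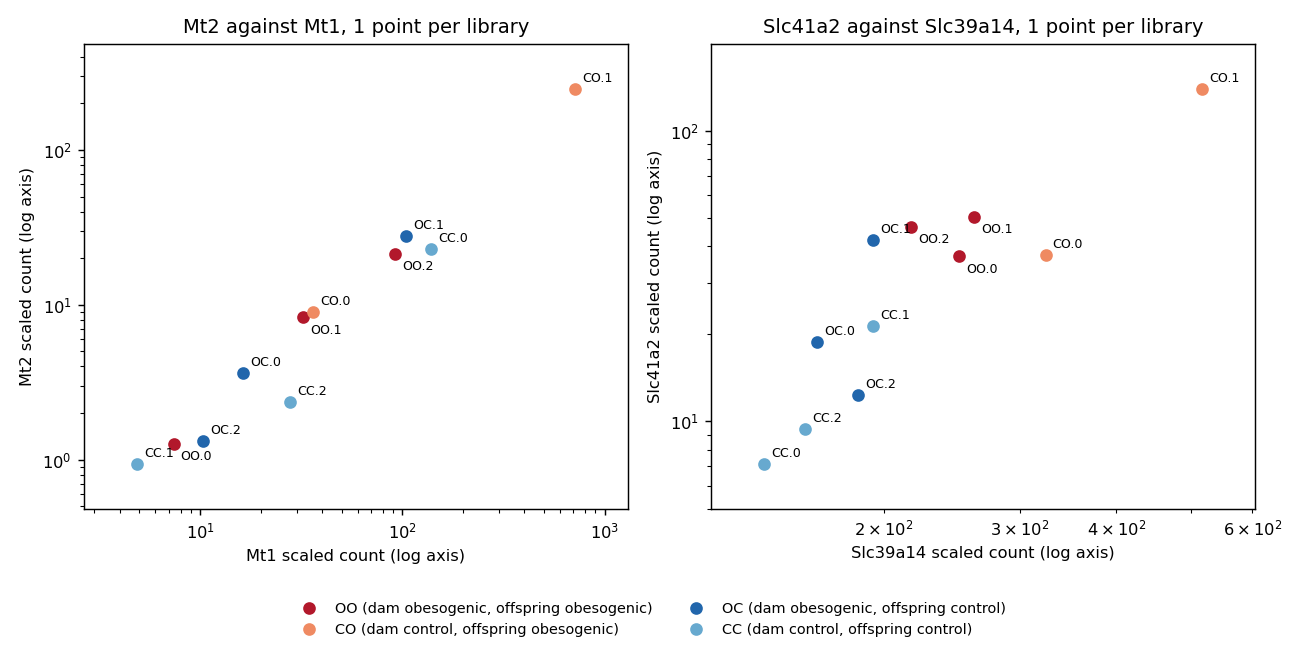
Mt2 against Mt1 (left) and Slc41a2 against Slc39a14 (right), scaled counts on log axes, 1 labelled point per library. The Mt1 and Mt2 points follow a line over the whole range with r of 0.98, and CO.1 is the top point in both panels.

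Slc39a14 was higher on the obesogenic offspring diet. Its scaled counts were 250, 262 and 217 in OO, 324 and 517 in CO, 164, 194 and 185 in OC and 140, 194 and 158 in CC. Every obesogenic-fed library lay above every control-fed one, the nearest being 217 in OO.2 and 194 in OC.1 and CC.1. The share of all genes that separate in this way is not given here, so the separation is a description. The group means were 243 ± 23.5 in OO (SD, n = 3), 421 ± 137 in CO (SD, n = 2), 181 ± 15.5 in OC and 164 ± 27.7 in CC (SD, n = 3 each).

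With control dams Slc39a14 rose 2.52-fold on the obesogenic diet (CO against CC, difference of log2(value + 0.5) of 1.33 with SE 0.20, limma adjusted p = 0.0149). It was the only 1 of the 5 genes open to test that passed there, while 1.79% of all genes passed. That call was lost without CO.1 (1.0, adjusted p = 0.0753), CC.0 (adjusted p = 0.0637) or CC.2 (adjusted p = 0.0612), and when only CO and CC libraries were fitted (adjusted p = 0.0532). With obesogenic dams the difference was 0.42 with SE 0.18, at an unadjusted p of 0.0351 and a limma adjusted p of 0.575. None of the 5 genes passed in OO against OC, where limma called 0.165% of all genes, and Slc39a14 was the only 1 of the 5 under an unadjusted 0.05.

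Averaged over both kinds of dam, Slc39a14 was 1.84-fold higher on the obesogenic offspring diet (log2 difference 0.88 with SE 0.13, limma adjusted p = 0.00523). It was again 1 of 5, with 3.96% of all genes passing. This call held in every alternative that was run, with differences of 0.67 to 1.05. CO.1 had both the highest Slc39a14 value and the highest acute phase level. Without CO.1 the average effect was 0.71 (adjusted p = 0.0169), and without CO.1 and OC.1, the acute phase pair, it was 0.74 (adjusted p = 0.0229). OC.1, with an acute phase level of 2.03, had 194 of Slc39a14, the highest OC value and equal to CC.1, whose acute phase level was 0.02. Outside that pair the acute phase level was 0.14 to 0.79 in obesogenic-fed libraries and -0.28 to 0.13 in control-fed ones. Leaving the pair out therefore does not separate diet from acute phase level. The part of the acute phase in the Slc39a14 values was not tested.

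The dam's diet did not move Slc39a14 past the threshold. OC against CC differed by 0.15 (limma adjusted p = 0.944), and OO against CO by -0.76 with SE 0.20, at an unadjusted p of 0.00259 and a limma adjusted p of 0.758. The interaction, in which the offspring diet difference under control dams is taken from that under obesogenic dams, was -0.91 with an interval of -1.49 to -0.33, at an unadjusted p of 0.00527 and a limma adjusted p of 0.936. Without CO.1 the Slc39a14 difference was -0.42 in OO against CO and -0.57 in the interaction. So no neighbours in the order CO, OO, OC and CC passed the adjusted threshold, whereas CO against CC did, with the losses given above. As a description, the libraries of CO and OO did not overlap, nor did those of OO and OC, while those of OC and CC did.

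The 3 genes whose log2 values followed Slc39a14 most closely over the 11 libraries, among 9308 with a mean value of at least 5, were Steap4, a metalloreductase, with r of 0.96, Slc37a1, a sugar phosphate transporter, with 0.95 and Xbp1, a transcription factor of the unfolded protein response, with 0.94. Steap4 had 145, 164 and 210 in OO, 363 and 1116.4 in CO, 67.5, 140 and 72.5 in OC and 56.3, 78.4 and 46.2 in CC. These r values are a description, ranked from many genes, and carry no test.

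Of the exporters, Slc30a1 was steady, while Slc30a10 had an SD within groups of 0.40, against 0.24 for Slc39a14. Slc30a1 had scaled counts of 53.1, 59.7 and 51.8 in OO, 53.8 and 60.2 in CO, 55.2, 64.8 and 61.7 in OC and 60.2, 58.5 and 55.0 in CC. All 11 libraries lay within 1.25-fold and the groups overlapped throughout. Its SD within groups was 0.10, rank 11410 of 12086 from the highest. The average offspring diet effect was -0.08 with an interval of -0.26 to 0.09 (limma adjusted p = 0.631), and all 7 comparisons lay between -0.14 and 0.06. The genes most like it over the libraries were Rps28 (r of 0.82), Mmgt1 (0.80) and Dnase2a (0.79).

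Slc30a10 did not pass in any comparison, although its lowest values were on the obesogenic offspring diet. It had 46.0, 53.6 and 22.7 in OO, 38.0 and 31.7 in CO, 65.4, 54.1 and 44.2 in OC and 52.3, 61.0 and 45.6 in CC. OO.2 was the lowest library, both CO values lay under all OC and CC values, and OO overlapped with OC and CC. The means were 40.8 ± 16.1 in OO, 34.8 ± 4.49 in CO, 54.6 ± 10.6 in OC and 53.0 ± 7.70 in CC. The average offspring diet effect was -0.54 with an interval of -0.98 to -0.10, at an unadjusted p of 0.0202 and a limma adjusted p of 0.166. Without OO.2 that effect was -0.36. The difference in OO against OC was -0.49 with OO.2 and -0.12 without it. OO.2 was also the lowest library in the glucocorticoid-induced list, at -1.0, and the part of that in the Slc30a10 value was not tested. Over the libraries Slc30a10 was most like Nid2 (r of 0.94), Nfil3 (0.93) and Sf3b6 (0.93).

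**Figure D3:**
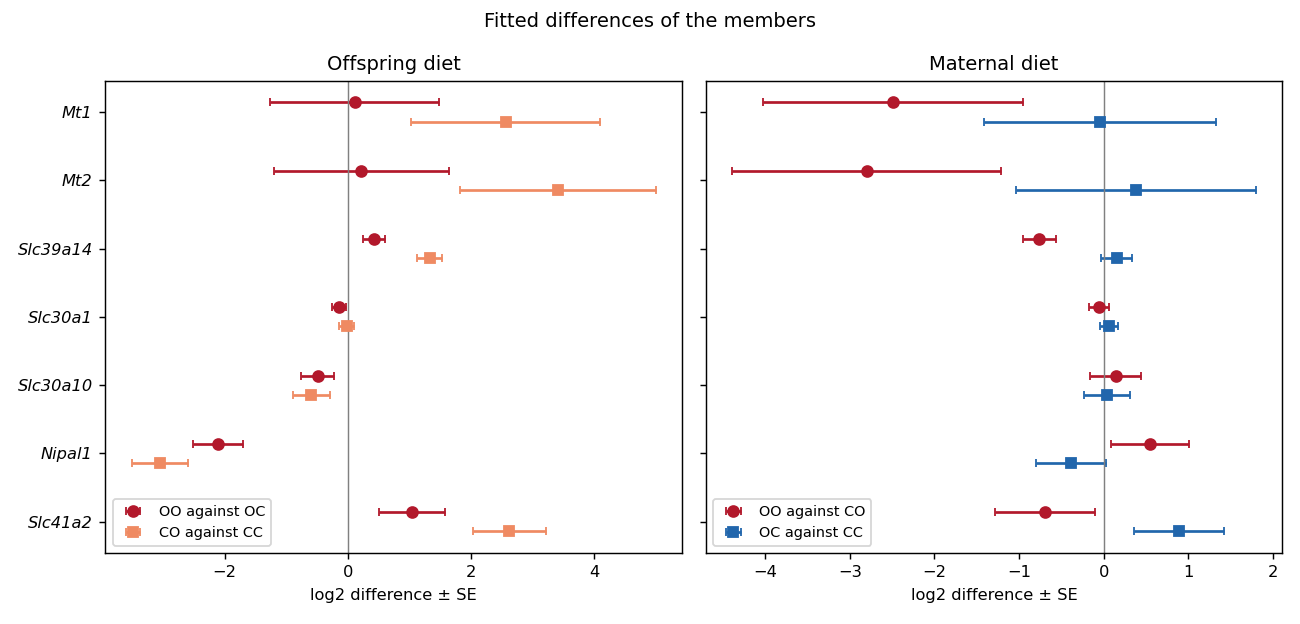
Fitted log2 differences with their SE for the 7 genes, offspring diet (OO against OC and CO against CC) on the left and maternal diet (OO against CO and OC against CC) on the right. Slc39a14 stands clear of 0 in CO against CC at 1.33, the metallothionein bars are the widest, and Nipal1 and Slc41a2 on the left were chosen by these very values.

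Nipal1 was low in all livers on the obesogenic diet. Its scaled counts were 3.07, 3.87 and 3.27 in OO, 1.17 and 3.71 in CO, 12.5, 11.1 and 30.7 in OC and 25.4, 27.3 and 14.2 in CC. The highest obesogenic-fed library had 3.87 and the lowest control-fed one 11.1. That separation goes with how the gene was chosen, and the share of all genes that show it is not given here. The low values rested on 92 reads in OO.0, 14 in OO.1, 20 in OO.2, 7 in CO.0 and 17 in CO.1. On the log2 scale Nipal1 was lower by 8.29-fold in CO than in CC and by 4.30-fold in OO than in OC, as a description. Without CO.0 the log2 difference of CO against CC was -2.38, and without CO.1 it was -3.72, against -3.05 with both.

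The dam's diet, which played no part in the choice of Nipal1, was tested. OC averaged 18.1 ± 10.9 and CC 22.3 ± 7.05, a log2 difference of -0.39 with an interval of -1.29 to 0.50 (limma adjusted p = 0.937). OO averaged 3.40 ± 0.416 and CO 2.44 ± 1.80, a difference of 0.55 with an interval of -0.45 to 1.56 (adjusted p = 0.902). The order of the means was CC, OC, OO and CO, in which, as a description, the libraries of OC and OO did not overlap and those of the other neighbours did. The genes most like Nipal1 across libraries were Htatip2 (r of 0.97), Ap2m1 (0.94) and Klb (0.93), the co-receptor of fibroblast growth factors. Klb had 45.5, 47.8 and 46.6 in OO, 41.5 and 44.1 in CO, 66.0, 55.0 and 81.0 in OC and 62.3, 81.7 and 73.8 in CC. It too was lower in every obesogenic-fed library. That follows largely from its being picked for likeness to Nipal1, and it is no separate result.

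Slc41a2 was high on the obesogenic diet, with more overlap. It had scaled counts of 36.9, 50.6 and 46.7 in OO, 37.3 and 139 in CO, 18.7, 42.0 and 12.3 in OC and 7.13, 21.3 and 9.40 in CC. OC.1 at 42.0 lay above OO.0 and CO.0, and all CC libraries lay under all obesogenic-fed ones. As a description, Slc41a2 was 6.16-fold higher in CO than in CC and 2.05-fold higher in OO than in OC. Without CO.1 the log2 difference of CO against CC was 1.68, and without CO.0 it was 3.56, against 2.62 with both. CO.1 and OC.1, the highest libraries of their groups, were those highest in the acute phase list, and the part of that in the Slc41a2 values was not tested.

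Under the maternal diet Slc41a2 did not pass. OC averaged 24.3 ± 15.6 and CC 12.6 ± 7.62, a log2 difference of 0.89 with an interval of -0.26 to 2.04 (limma adjusted p = 0.923). OO averaged 44.8 ± 7.04 and CO 88.3 ± 72.1, a difference of -0.70 with an interval of -1.98 to 0.59 (adjusted p = 0.905), and 0.25 without CO.1. The gene most like Slc41a2 was Saa4, an apolipoprotein of the serum amyloid A family, with r of 0.98. Saa4 had 164, 201 and 224 in OO, 222 and 480 in CO, 97.5, 199 and 90.3 in OC and 57.5, 93.9 and 69.8 in CC. Atp11a and Actn1 followed with r of 0.97 each.

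Slc41a2 and Slc39a14 were high in the same libraries, but the relation did not pass the test within groups. Over 11 libraries r was 0.88 and rho 0.89, as a description, since Slc41a2 was chosen by its offspring diet values and Slc39a14 moved with the same diet. After subtraction of group means r was 0.80 (exact permutation within groups, p = 0.076, adjusted p = 0.65 over 20 pairs). For Slc39a14 and Nipal1 r was -0.72 over all libraries, again as a description, and 0.53 after subtraction of group means (exact permutation within groups, p = 0.35, adjusted p = 0.65). Of the 20 pairs tested within groups, only the metallothioneins passed. With 432 arrangements, a pair passing alone had to reach the smallest possible permutation p, 0.00231. Not passing therefore says little about the other pairs.

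No member passed under the maternal diet. Limma called none of the 7 in OC against CC, where 0% of all genes passed and 636 of 12086 were under an unadjusted 0.05. It called none in OO against CO, where 0.0414% of all genes passed, and none in the average maternal effect, where 0.0331% did. In each of those last comparisons 1 of the 7 genes, Slc39a14, was under an unadjusted 0.05. None of the 5 genes passed in the interaction, with 0.0331% of all genes called and again only Slc39a14 under an unadjusted 0.05. These comparisons share libraries, so their values are not independent of one another.

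**Figure D4:**
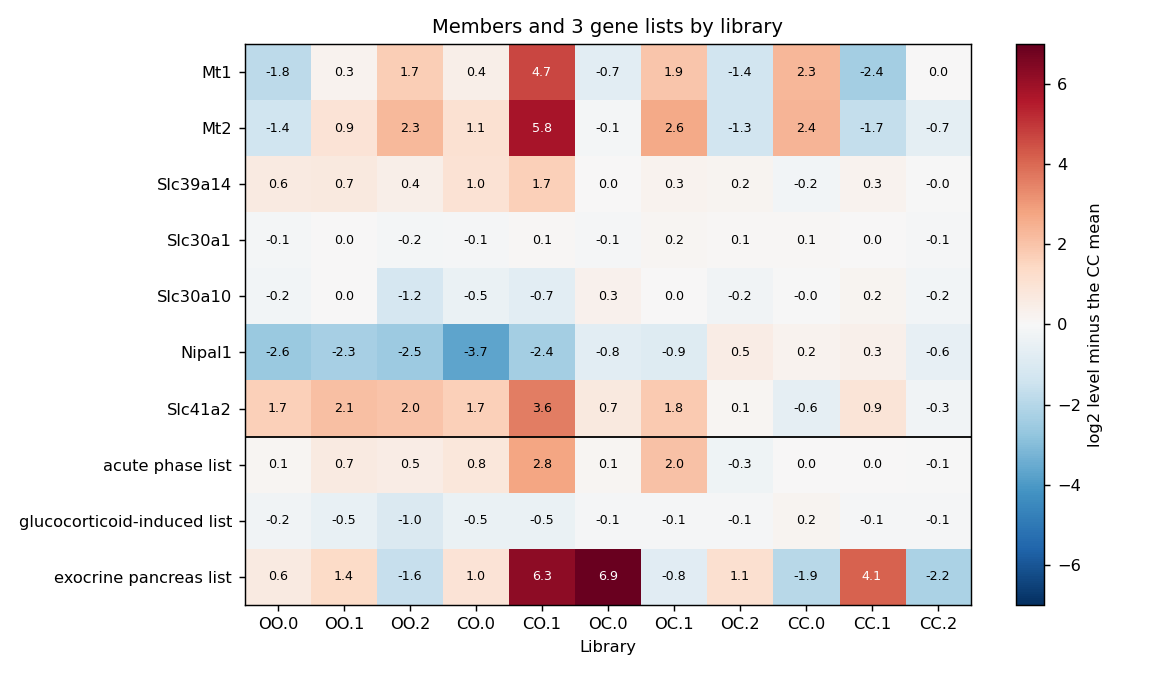
Log2 level minus the CC mean for each of the 7 genes and for the mean of 3 gene lists, by library, with red for higher and blue for lower. CO.1 is high for Mt1, Mt2, Slc39a14, Slc41a2, the acute phase list at 2.77 and the exocrine pancreas list at 6.26, while OC.0, with 6.90 in the pancreas list, is not raised in Mt1 or Mt2.

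Pancreatic transcripts were high in CO.1 and OC.0 together with CC.1. Mt1 was 713 in CO.1, 16.3 in OC.0 and 4.86 in CC.1, so it was highest in the first of these and lowest of all in the last. Among the defining pancreas markers, Cela3b, Prss2, Cel, Try4 and Try5 were at 0 in at least 1 library. Without CO.1 and OC.0 the average offspring diet effect was 0.67 for Slc39a14 (limma adjusted p = 0.0437) and the CO against CC difference was 1.0 (adjusted p = 0.0926).

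Among the other genes of the same metals 3 passed in at least 1 comparison. Of 24 further zinc genes, 16 were measured, 8 of them above and 8 below 0 on average, and the median offspring diet difference was 0.02 in CO against CC and 0.01 on average, beside -0.01 and -0.00 over all genes. Only Slc30a5, which loads zinc into the secretory pathway, passed, 1 of 16 in CO against CC, where 1.79% of all genes passed, and on average, where 3.96% did. It had 93.2 ± 5.90 in CO and 50.4 ± 8.22 in CC, a log2 difference of 0.89 with SE 0.20 (limma adjusted p = 0.0464), and averaged over dams the difference was 0.54 (adjusted p = 0.0446). In CO against CC the Slc30a5 call was lost without CC.0, CC.2, CO.0, CO.1, OC.2 or OO.0, with differences of 0.81 to 0.95 and adjusted p of 0.0673 to 0.226. On average it was lost without any 1 of 8 libraries, all but CC.1, OC.1 and OO.2, with differences of 0.46 to 0.57 and adjusted p of 0.0726 to 0.143.

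Of 21 further magnesium genes, 16 were measured, 10 of them above and 6 below 0 on average, with a median of 0.12 in CO against CC and 0.04 on average. Of these 1 passed in CO against CC and 2 on average, beside the same 1.79% and 3.96% of all genes. Ptp4a1, a phosphatase that binds CNNM magnesium transport proteins, had 350 ± 89.9 in CO and 197 ± 15.6 in CC, a log2 difference of 0.80 with SE 0.17 (limma adjusted p = 0.0386). Its average effect was 0.57 (adjusted p = 0.0165). The Ptp4a1 call in CO against CC was lost without CC.0, CC.1, CC.2, CO.1 or OO.0, with differences of 0.54 to 0.86 and adjusted p of 0.0522 to 0.233, and the average call was lost without CO.1 (0.43, adjusted p = 0.0642).

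Slc41a1, a relative of Slc41a2, rose on average by 0.94 with SE 0.23 (limma adjusted p = 0.0454). In CO against CC its log2 difference was 1.40 with SE 0.35 (limma adjusted p = 0.0698), and in OO against OC it was 0.48 with SE 0.31 (adjusted p = 0.771). It had 8.23 ± 1.88 in OO, 12.0 ± 7.36 in CO, 5.78 ± 1.6 in OC and 3.85 ± 0.588 in CC. The average call was kept only without CO.0 or OC.1 and was lost without any 1 of the other 9 libraries, with differences of 0.62 (without CO.1) to 1.01. No other zinc or magnesium gene of the lists passed in any of the 7 comparisons.

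Of 12 copper and manganese genes, all 12 were measured and limma called 0 in each of the 7 comparisons, with 3 under an unadjusted 0.05 in CO against CC and 2 on average. The smallest unadjusted p for the average offspring diet effect belonged to Cox17, a copper chaperone of the mitochondrion, among higher genes (log2 difference 0.30, limma adjusted p = 0.235) and to Atp7b, the copper exporter of hepatocytes, among lower ones (-0.28, limma adjusted p = 0.161). In CO against CC they were Atp7a, a copper exporter, at 0.53 (limma adjusted p = 0.229) and Atp7b at -0.41 (limma adjusted p = 0.210).

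**Figure D5:**
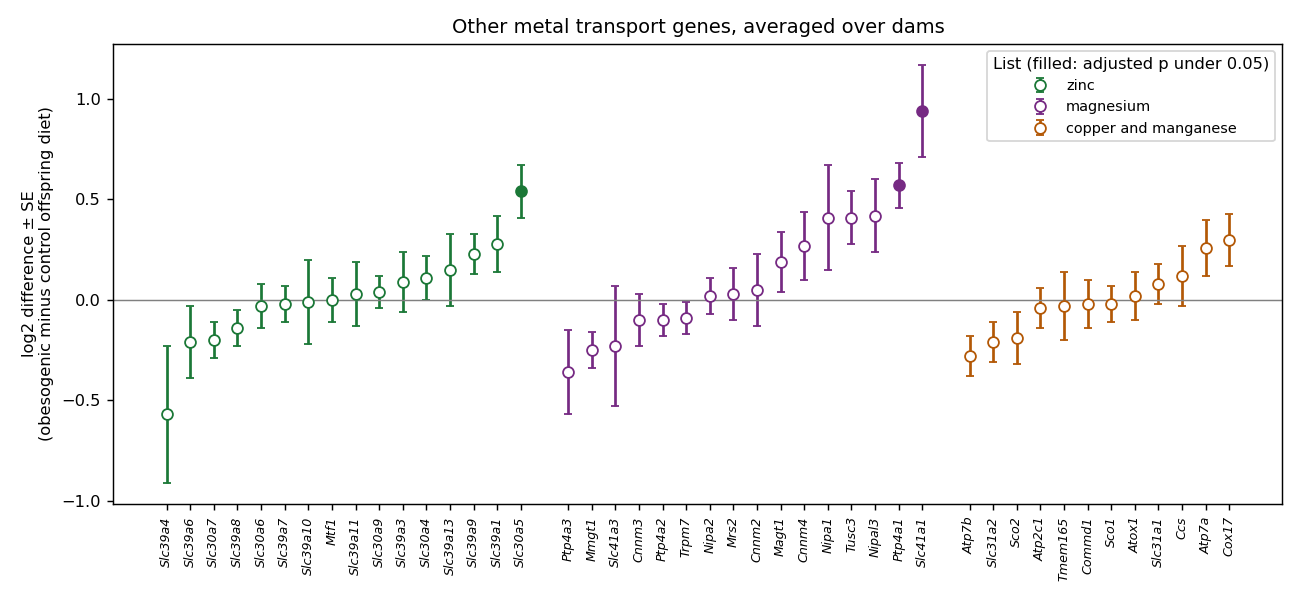
Log2 difference with SE for the average offspring diet effect (obesogenic minus control) of 16 zinc, 16 magnesium and 12 copper and manganese genes other than the 7 described. Filled points, at 0.54 for Slc30a5, 0.57 for Ptp4a1 and 0.94 for Slc41a1, passed an adjusted p of 0.05, and the lowest point is Slc39a4 at -0.57.

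Some genes of the acute phase list passed under the obesogenic offspring diet with control dams and on average. Saa1, Saa2, Lcn2, Hp and Orm1 were not among them. Of 25 measured genes, 3 rose in CO against CC (Saa4, Il1rn and Stat3) and 4 on average (also Cebpb), beside 1.79% and 3.96% of all genes, with medians of 1.31 and 0.57. In OO against OC limma called 0 of the 25 (1 under an unadjusted 0.05), 9 lay above and 16 below 0, and the median was -0.13. In the interaction limma also called 0 (7 under an unadjusted 0.05), with all 25 below 0 and a median of -1.08. In CO against CC the Saa4 call was lost without CC.0, CC.2 or CO.1, that of Il1rn without any 1 of 8 libraries and that of Stat3 without any 1 of 7. Without CO.1 the log2 differences were 1.61 for Saa4, 1.48 for Il1rn and 0.64 for Stat3 (limma adjusted p = 0.133, 0.297 and 0.244), against 2.17, 2.13 and 0.96 with it. On average the Saa4 call held without each single library, that of Il1rn was lost without CO.1 (1.39, adjusted p = 0.0600), that of Stat3 without any 1 of 6 libraries and that of Cebpb without any 1 of 7. Without the pancreas pair CO.1 and OC.0 all 4 average calls were lost, at 1.07 for Saa4 (adjusted p = 0.0890), 1.36 for Il1rn, 0.45 for Stat3 and 0.46 for Cebpb (adjusted p = 0.125 to 0.227). Without the acute phase pair CO.1 and OC.1 the average differences were 1.33 for Saa4, 1.30 for Il1rn, 0.54 for Stat3 and 0.50 for Cebpb. Leaving out either pair leaves a lone CO library. Of 10 glucocorticoid-induced genes, 2 fell on average, where 3.96% of all genes passed, Tat by 1.23 and Fkbp5 by 0.96 (limma adjusted p = 0.0149 and 0.0318). The Tat call held without each single library but not without the pancreas pair CO.1 and OC.0 (-1.30, adjusted p = 0.0867) or the acute phase pair (-1.26, adjusted p = 0.0617). The call of Fkbp5 was lost without any 1 of 8 libraries, with adjusted p of 0.0531 to 0.0860.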

How the data were processed

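The authors deposited 1 table with a signal per gene and library, a gene count divided by 1 factor per library. The table names it CPM, per the file headers, but its columns sum to between 929699 and 1099404. Depth was computed from 1 step per library, taken as 1 read. It was the largest step found of which most low values were whole multiples. Of the nonzero values, leaving out the highest, 95.61% to 97.33% were whole multiples of it within 0.01. Intervals and floors from reads cover counting error only. Libraries were made from total liver RNA with a TruSeq kit, per the labels' protocols, and aligned with Bowtie 1.2.3 to mm8, per the submitters' processing notes. For the counter, annotation, strand setting and scaling, details were not given in the sources used here, so overlapping or near-identical genes (the Saa family among them) are uncertain. The columns name a group but no sample, and the 12 labelled samples met 11 columns. Symbols were matched for 11965 of 12086 Ensembl identifiers.

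Values were analysed as log2(value + 0.5), which understates the changes of low genes, with limma 3.58.1 in R 4.3.3 (moderated test with an intensity trend), in 1 fit over 11 libraries with 1 mean per group, 7 residual and 4.66 prior degrees of freedom, and Benjamini-Hochberg adjustment over 12086 genes at 0.05. A gene had to reach 1 in at least 3 libraries, which all did. The fit was also run on simulated data, with the same spread setting for every gene and no outlying libraries. That run does not cover genes as variable as Mt1 and Mt2 or libraries such as CO.1. There were 7 comparisons. Correlations over all libraries used 100000 resamples and were tested for the 10 pairs of genes chosen by function. After subtraction of group means 20 pairs were tested by exact permutation within groups, a scheme chosen after seeing the data. Intervals used scipy 1.17.1 and figures matplotlib 3.10.9. Sequences came from RefSeq (GRCm38.p6) and were not used for any value. The members and gene lists were chosen with earlier results of these data known. All members were named, with every listed metal gene that passed, or, where none passed, the 1 with the smallest p in each direction, and the 3 genes most like each member. Acute phase, glucocorticoid-induced and cell type lists were given as levels per library.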

Additional observations from a re-analysis of the deposited data

How the results depend on the processing

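Slc39a14 kept its average offspring diet call in every alternative run, and no setting changed the number of members called in any comparison other than CO against CC. In CO against CC the 1 call became 0 when only those 2 groups were fitted, without the 2 libraries highest in exocrine pancreas transcripts and without the 2 highest in acute phase transcripts, and leaving out 1 library gave 0 to 1. Fewer libraries entered each of these fits. Over the 7 genes, 679 single values came from settings that can move the difference itself, of which 603 kept direction and call, 5 lost the call, 14 moved and 57 reversed. A further 329 came from settings that leave the difference fixed by construction (other variance settings and filters, or leaving out a library of another group), and 1 of these lost the call. Only Slc39a14 had a call to lose, in CO against CC and on average. For the rest, keeping the call means staying without one. The counts include Nipal1 and Slc41a2 in the offspring diet comparisons, where their direction was largely set by how they were chosen. They do not measure how firm the results are. The largest shift of the median of all genes under median-of-ratios scaling was 0.013. The cause of the reversals was not tested. All are of differences that passed no test.

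Without the pancreas pair the log2 differences were -0.23 (Mt1) and -0.04 (Mt2) in OO against OC, 0.29 (Mt1) and -0.10 (Slc30a10) in OC against CC, 0.02 (Slc30a1) and 0.25 (Slc41a2) in OO against CO, and 0.10 (Mt2) and -0.05 (Slc30a10) in the average maternal effect. Without the acute phase pair they were -0.74 (Mt2) in OC against CC, 0.02 (Slc30a1) and 0.25 (Slc41a2) in OO against CO, and 0.68 (Mt1), 0.29 (Mt2), 0.01 (Slc30a1) and -0.02 (Slc30a10) in the interaction. Library weights, added after seeing the data, gave 0.00 (Slc30a1) in CO against CC, -0.50 (Mt1) and -0.32 (Mt2) in OO against OC, -0.07 (Mt2) and 0.11 (Nipal1) in OC against CC, and -0.05 (Slc41a2) in the average maternal effect. A pseudocount of 2 gave -0.01 (Nipal1) in the average maternal effect.

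Leaving out 1 library gave -0.10 to 0.06 for Slc30a1 in CO against CC. In OO against OC it gave -0.73 to 1.10 (Mt1) and -0.63 to 1.35 (Mt2). In OC against CC it gave -1.23 to 1.12 (Mt1), -0.74 to 1.56 (Mt2) and -0.10 to 0.18 (Slc30a10). In OO against CO it gave -0.14 to 0.02 (Slc30a1), -0.10 to 0.51 (Slc30a10), -0.11 to 1.22 (Nipal1) and -1.64 to 0.25 (Slc41a2). In the average maternal effect it gave -0.04 to 0.04 (Slc30a1), -0.03 to 0.27 (Slc30a10), -0.25 to 0.42 (Nipal1) and -0.38 to 0.57 (Slc41a2), and -0.13 to 0.48 (Slc30a10) in the interaction. A lone CO library is assumed to vary like the other groups.

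Count tests with edgeR and DESeq2 were planned and not run, since the values of 6 columns did not all come back as whole reads. No paired analysis was possible because the library numbers in the columns pair nothing and the labels give none. At the depth of these libraries the Mt2 and Nipal1 values under 4 rest on 5 to 38 reads, apart from Nipal1 in OO.0 with 92.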

Other observations

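Several lists of other liver and non-liver cell types were measured beside the metal genes, with genes named here after their values were seen. Of 6 measured hepatocyte genes, the urea cycle genes Ass1 and Cps1 fell on average under the obesogenic offspring diet, by 1.0 and 1.06 on the log2 scale (limma adjusted p = 0.0280 and 0.0318), where 3.96% of all genes passed. The Ass1 call was lost without any 1 of 4 libraries and the Cps1 call without any 1 of 6, CO.1 among them (-0.80 and -0.85). Of 8 macrophage genes, Mpeg1 rose in CO against CC by 1.18 (limma adjusted p = 0.0358, lost without any 1 of CC.0, CC.1, CC.2 and CO.1) and on average by 0.92 (adjusted p = 0.0102, lost without the pancreas pair CO.1 and OC.0 at 0.77, adjusted p = 0.102). All 8 had fitted average offspring diet differences above 0, with a median of 0.28, and all 8 also lay above 0 in OC against CC (median 0.27) and in the average maternal effect (median 0.18). Of 4 neutrophil genes, S100a8 rose in CO against CC by 2.40 (limma adjusted p = 0.0283, lost without CC.0, CC.2 or CO.1) and on average by 1.62 (adjusted p = 0.0128). Its average call was lost without CO.1 (1.25, adjusted p = 0.0574) and without the pancreas pair (1.17, adjusted p = 0.113). None of the 6 endothelial, 6 stellate, 3 cholangiocyte, 5 red blood cell or 13 exocrine pancreas genes passed in any of the 7 comparisons.

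Skeletal muscle transcripts, 6 of them measured, summed to 135 in OO.0 and to 76.6 in CC.0, against 1.11 to 36.2 in the other 9 libraries, and no gene of that list passed. Of 5 adipocyte genes 1, Cfd, was measured, at 13.9 in OO.2 and at 0.276 to 6.46 in the other 10 libraries. OO.2 was also lowest of all libraries for Slc30a10, at 22.7.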
